A study of Homo sapiens with 14 samples.

Results

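The collagen and stromal matrix genes of A375 cells, a human melanoma line that carries an activating BRAF mutation, were followed across an allelic series of ZC3H18 (Z18). The set was every gene whose whole symbol has the form COL, number, A, number, together with FN1, LUM, FAP, SPARC and POSTN. This gave 49 genes, of which 44 were collagen genes and 5 were not, of 28307 gene symbols in all. Their levels were read as FPKM, a measure of fragments scaled to transcript length and library size, in 14 libraries of polyA-selected RNA.

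The libraries fell into 5 groups. Bulk Z18 CRISPR populations (n = 3) were pools transfected with a vector that cuts Z18 and kept under antibiotic, so they were mixtures of edited and unedited cells. Bulk control populations (n = 3) were Z18 wild type, received an empty vector and were selected in the same way. The Z18trunc/+ clones (n = 3) carried 1 truncating allele, and the Z18-/+ clones (n = 3) had lost the function of 1 allele. The Z18WT clones (n = 2) came from cells given Cas9 vectors that lacked a guide RNA. All clones were transfected, selected and grown from single cells by limiting dilution, with 1 library from each. The methods describe 1 trunc/+ clone made by homology-directed repair and 2 with other truncating changes, and -/+ clones kept for lower Z18 protein. Nothing places the 3 bulk populations of a group in separate experiments, so p-values measure the spread between these libraries, which may be technical in part.

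Collagens are trimers of chains that wind into a triple helix in the endoplasmic reticulum, after prolines and lysines have been hydroxylated. Fibrillar collagens form the fibres of dermis and bone, type IV collagen forms the sheet of basement membranes, type VI collagen forms beaded filaments around cells, and FACIT collagens sit on the surface of fibres. In skin these proteins are mostly made by fibroblasts, while melanocytes rest on a basement membrane. Melanoma cells are known to make part of their own matrix, and SPARC and fibronectin are the matrix proteins most often discussed in their invasion. RNA levels in a culture do not separate fewer expressing cells from less RNA per cell.

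The set held little RNA of COL1A1, COL1A2 and COL3A1, the collagen genes of the main skin fibres. Other members were abundant, such as SPARC at a mean of 311 FPKM and COL6A1 at 28.8 FPKM. Of the 49 genes, 27 reached 1 FPKM in at least 1 library, 11 reached it in all 14 libraries, and 22 were below 1 FPKM everywhere, with a highest value of 0.748. COL10A1, COL23A1 and COL6A6 were listed at 0 in all 14 libraries. The genes just under 1 FPKM were COL4A6 (0.748), POSTN (0.706), COL15A1 (0.528), COL8A2 (0.521) and COL24A1 (0.462 FPKM at its highest). COL2A1, the main collagen of cartilage, reached 0.309 FPKM and COL4A4 reached 0.229 FPKM, while COL4A3, COL6A5, COL9A1, COL11A1, COL14A1, COL20A1, COL21A1, COL25A1, COL26A1 and COL28A1 stayed under 0.1 FPKM. COL1A2 and COL3A1, which with COL1A1 make up the main fibres of skin, reached at most 0.0479 and 0.0604 FPKM. COL1A1 itself ranged from 0.0101 to 1.01 FPKM, and its highest library was bulk control 3. Of the fibroblast and mural markers outside the set, 3 of 10 reached 1 FPKM in any library. These were ACTA2 at 2.33 to 19.7 FPKM, PDGFRB at up to 2.28 FPKM and RGS5 at up to 1.80 FPKM, while DPT was at 0 in all libraries and THY1 did not pass 0.007 FPKM.

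The highest means over the 14 libraries were those of SPARC, a collagen-binding glycoprotein, and COL9A3, a chain of the FACIT collagen IX best known from cartilage. In bulk CRISPR libraries COL4A2 averaged 41.1 FPKM and COL9A3 39.2 FPKM, so the second place differed between groups. SPARC took 21.0% to 57.6% of the summed FPKM of the set in a library. By family, 6 of 11 fibrillar genes, 3 of 6 type IV genes, 3 of 5 genes of the beaded filament family, 6 of 10 FACIT genes and 2 of 4 transmembrane collagens reached 1 FPKM in any library. Of the 5 genes that are not collagens, POSTN alone stayed below it, at up to 0.706 FPKM.

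Promoter sequences were taken from RefSeq (GRCh38.p14), which held 35 of the 49 genes, and 4 are shown because the results turn on these genes. COL4A1 and COL4A2, the chains of the common type IV trimer, lie head to head on chromosome 13 with starts 127 bases apart, so that 1 window serves both. COL13A1 and COL19A1 moved in opposite ways between clones, and FN1 had the widest range of the abundant genes. Each run is 300 bases, mostly upstream of the annotated start, 5′ to 3′ on the strand of the named gene. Capitals mark 5 motifs searched on both strands. The GC box was spelled as GGGCGG and the TATA box was spelled as TATAAA. The cyclic AMP response element was spelled as TGACGTCA and the AP-1 site was spelled as TGANTCA. The CCAAT box was searched by the letters of its name. The windows are chr13:110307034-110307333 (plus strand), chr10:69801656-69801955 (plus strand), chr6:69866306-69866605 (plus strand) and chr2:215436019-215436318 (minus strand).
COL4A2: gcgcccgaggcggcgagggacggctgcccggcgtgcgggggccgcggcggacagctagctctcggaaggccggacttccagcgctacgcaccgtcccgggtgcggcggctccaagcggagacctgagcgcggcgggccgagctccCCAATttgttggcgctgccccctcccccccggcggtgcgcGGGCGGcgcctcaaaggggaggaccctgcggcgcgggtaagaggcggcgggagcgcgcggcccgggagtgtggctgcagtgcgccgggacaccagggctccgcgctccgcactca
COL13A1: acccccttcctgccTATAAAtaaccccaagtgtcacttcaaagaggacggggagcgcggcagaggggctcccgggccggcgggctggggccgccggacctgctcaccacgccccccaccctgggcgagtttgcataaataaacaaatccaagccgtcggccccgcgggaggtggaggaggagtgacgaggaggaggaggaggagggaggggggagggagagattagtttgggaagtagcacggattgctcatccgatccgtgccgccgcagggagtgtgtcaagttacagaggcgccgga
COL19A1: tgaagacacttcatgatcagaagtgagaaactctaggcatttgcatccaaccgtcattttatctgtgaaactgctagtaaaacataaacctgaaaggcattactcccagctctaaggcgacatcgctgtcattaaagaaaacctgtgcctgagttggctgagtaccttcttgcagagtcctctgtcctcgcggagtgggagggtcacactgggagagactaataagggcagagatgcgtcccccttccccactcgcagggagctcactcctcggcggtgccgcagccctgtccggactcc
FN1: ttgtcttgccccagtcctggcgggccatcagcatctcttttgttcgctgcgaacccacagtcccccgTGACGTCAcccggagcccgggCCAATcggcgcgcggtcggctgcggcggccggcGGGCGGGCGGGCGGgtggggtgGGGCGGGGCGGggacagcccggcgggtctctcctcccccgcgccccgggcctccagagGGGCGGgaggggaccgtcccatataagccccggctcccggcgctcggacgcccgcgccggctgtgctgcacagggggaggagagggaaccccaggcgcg

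The shared COL4A1 and COL4A2 window held 1 CCAAT box at -105 and 1 GC box at -65, counted from the COL4A2 start as 0, and was 77.7% G and C. The FN1 window held 6 GC boxes, some of which overlap one another, together with 1 CCAAT box and 1 cyclic AMP response element. COL13A1 had 1 TATA box at -236, and COL19A1 had none of the 5 motifs in this window. Among the 35 promoters of the set, a GC box was present in 25, a CCAAT box in 15, a TATA box in 9, a cyclic AMP response element in 1 and an AP-1 site in 2. Among all 35116 promoters the shares were 45.0%, 34.6%, 11.5%, 1.8% and 7.7%.

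Depth and library quality differed between the libraries. They held 15615675 to 33018360 aligned fragments, and 1 FPKM stood for a mean read coverage of 4.04 to 8.80. Z18 itself was at 10.4 to 12.8 FPKM in bulk CRISPR libraries and 13.9 to 48.7 FPKM in bulk controls, with bulk control 2 the low one, and at 8.70 to 14.3 FPKM in trunc/+, 16.1 to 17.1 FPKM in -/+ and 22.0 to 23.5 FPKM in WT clones. Bulk control 2 stood apart in a way that bears on long genes. Its genes with transcripts over 6 kb lay at a median of -0.61 (log2) from the mean of the 6 bulk libraries and those under 2 kb at 0.28, while the other 5 libraries lay between -0.11 and 0.28 for the long genes. The median longest coding transcript was 6.49 kb for the 20 members tested in the bulk fit and 3.50 kb for all tested genes with a known length (90.5% of them). Bulk control 2 had the lowest value of the 6 libraries for 15 of these 20 members and for 45.6% of all tested genes. The part that transcript length played in the bulk differences was not tested, and results are also given without this library.

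**Figure D1:**
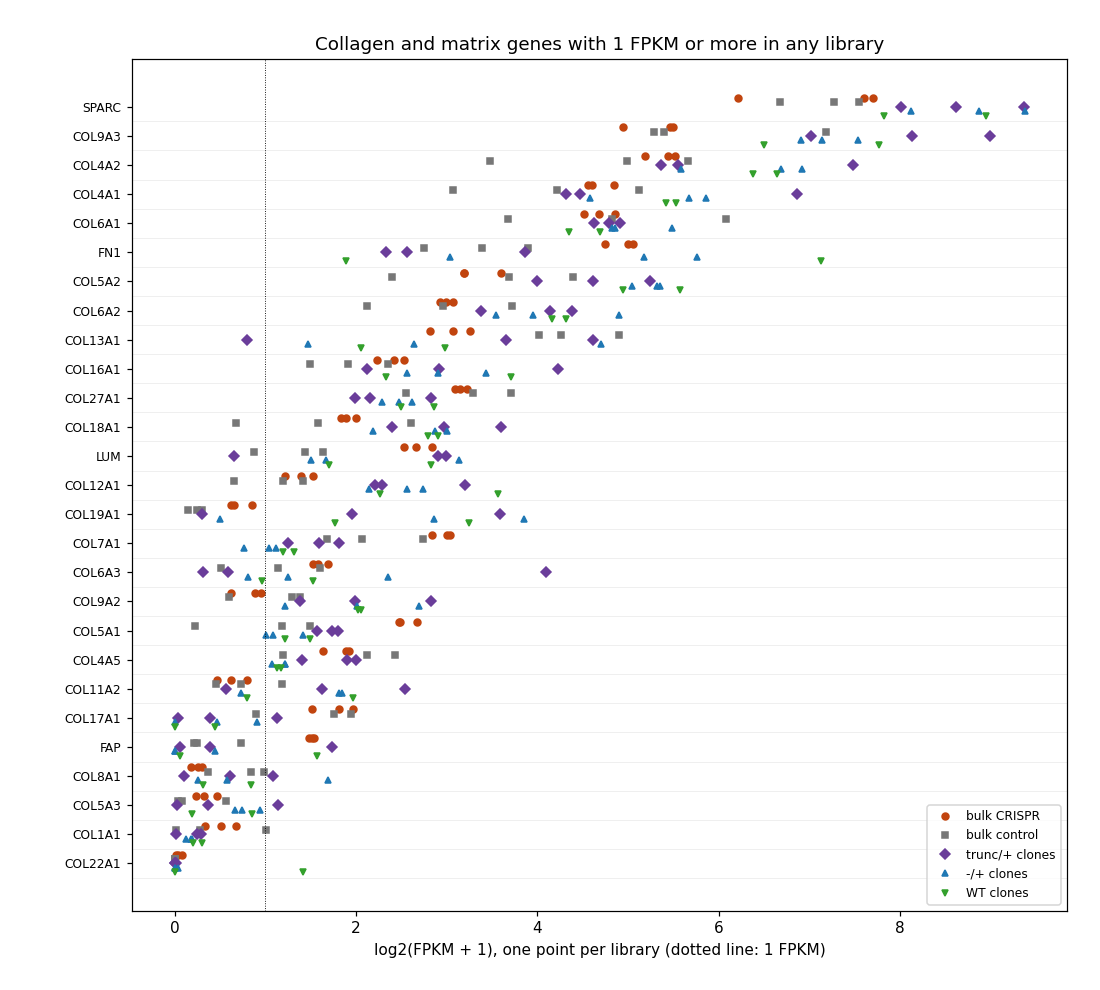
Levels of the 27 genes with at least 1 FPKM in any library, as log2(FPKM + 1) on the x axis, with 1 point per library, a colour and symbol for each of the 5 groups, and genes ordered by their mean. SPARC and COL9A3 have the highest means, FN1 reaches from 2.71 to 139 FPKM between the WT clones, and the last 3 genes (COL5A3, COL1A1 and COL22A1) are above 1 FPKM in 1 library each.

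The first comparison asked whether matrix genes differed when Z18 was cut in a pool of cells. FN1, LUM, FAP, COL5A1 and COL7A1 were higher in every bulk CRISPR library than in any bulk control, and COL13A1 was lower, but none of them passed the adjusted threshold. In the limma fit 0 of 20 tested members were called at an adjusted p under 0.05, against 0.347% of 12114 genes tested. At an unadjusted p under 0.05 there were 6 of 20 members, 5 higher and 1 lower, against 20.9% of all genes. These 6 were also the members whose groups did not overlap, which was so for 32.2% of all genes. Of the 20 members, 1 (FAP) met the expression filter through the edited pools alone. The median difference over the 20 members was 0.29 on the log2(FPKM + 1) scale, and 0.18 over all genes tested.

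FN1 encodes fibronectin, a glycoprotein that links integrins to the matrix. It measured 25.9, 32.4 and 31.0 FPKM in the bulk CRISPR libraries, against 13.9, 5.74 and 9.51 FPKM in the bulk controls. Every edited pool was above every control, and the log2 difference was 1.59 ± 0.31 (SE, adjusted p = 0.0885).

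COL5A1 encodes a chain of collagen V, which starts the assembly of collagen fibres. It measured 4.55, 5.38 and 4.63 FPKM in bulk CRISPR, against 1.28, 0.171 and 1.82 FPKM in bulk control, a log2 difference of 1.58 ± 0.33 (adjusted p = 0.0941). The lowest of the 6 values was that of bulk control 2. LUM encodes lumican, a leucine-rich proteoglycan that spaces collagen fibres, and measured 6.15, 5.33 and 4.79 FPKM in bulk CRISPR, against 1.72, 2.11 and 0.834 FPKM in bulk control (log2 difference 1.36 ± 0.26, adjusted p = 0.0885). Here bulk control 2 was the highest of the controls.

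FAP encodes a membrane serine protease of activated fibroblasts that is also found on some tumour cells. It was nearly even among the bulk CRISPR libraries at 1.90, 1.85 and 1.80 FPKM, against 0.663, 0.190 and 0.165 FPKM in the controls (log2 difference 1.11 ± 0.20, adjusted p = 0.0818). No control reached 1 FPKM, so FAP entered the fit only through the edited pools in which it was high, and its difference is given as a description. COL7A1, the anchoring fibril collagen that ties epithelium to dermis, measured 6.14, 7.21 and 7.0 FPKM in bulk CRISPR, against 3.19, 2.21 and 5.69 FPKM in bulk control (log2 difference 0.79 ± 0.30, adjusted p = 0.209). The gap between these groups was narrow, at 6.14 FPKM in the lowest edited pool and 5.69 FPKM in the highest control.

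COL13A1 encodes a transmembrane collagen of cell adhesion sites and went the other way. It measured 8.60, 6.03 and 7.41 FPKM in bulk CRISPR, against 18.2, 15.2 and 29.0 FPKM in bulk control (log2 difference -1.35 ± 0.29, adjusted p = 0.0943). No edited pool reached the lowest control.

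SPARC and members of the type IV, VI and IX collagens overlapped between the bulk groups. SPARC measured 208, 73.3 and 194 FPKM in bulk CRISPR, against 186, 102 and 153 FPKM in bulk control (log2 difference 0.01 ± 0.42, adjusted p = 0.991). COL9A3 measured 44.4, 29.8 and 43.3 FPKM in bulk CRISPR, against 37.95, 41.2 and 145 FPKM in bulk control (-0.65 ± 0.48, adjusted p = 0.437), and the high value was that of bulk control 3. Tested members of the type IV and VI families shared 1 shape in the controls, low in control 2 and high in control 3. This shape was not particular to them. COL5A1, COL5A2, COL7A1, COL16A1, COL17A1, COL18A1 and COL27A1 also had it. COL4A2 measured 35.6, 44.9 and 42.7 FPKM in bulk CRISPR, against 30.9, 10.2 and 49.6 FPKM in bulk control (0.68 ± 0.49, adjusted p = 0.427). COL4A1 measured 22.6, 27.8 and 23.4 FPKM in bulk CRISPR, against 17.7, 7.43 and 33.7 FPKM in bulk control (0.53 ± 0.46). COL6A1, a chain of the beaded filament collagen VI, measured 21.8, 24.7 and 28.0 FPKM in bulk CRISPR, against 27.3, 11.8 and 66.8 FPKM in bulk control (-0.18 ± 0.52). In COL4A1, COL4A2 and COL6A1 the controls spanned the edited pools.

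COL5A2, the partner chain of collagen V, did not follow COL5A1. It measured 8.12, 8.15 and 11.2 FPKM in bulk CRISPR, against 11.9, 4.29 and 20.1 FPKM in bulk control (-0.17 ± 0.46). COL6A2 measured 6.997, 6.62 and 7.40 FPKM in bulk CRISPR, against 6.78, 3.34 and 12.2 FPKM in bulk control (0.06 ± 0.39). Differences in the other tested members lay between -0.10 for COL4A5, a type IV chain of kidney and skin basement membranes, and 0.52 for COL6A3, with COL16A1 at 0.47, COL12A1 at 0.29, COL18A1 at 0.29, COL17A1 at 0.23 and COL27A1 at -0.03.

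**Figure D2:**
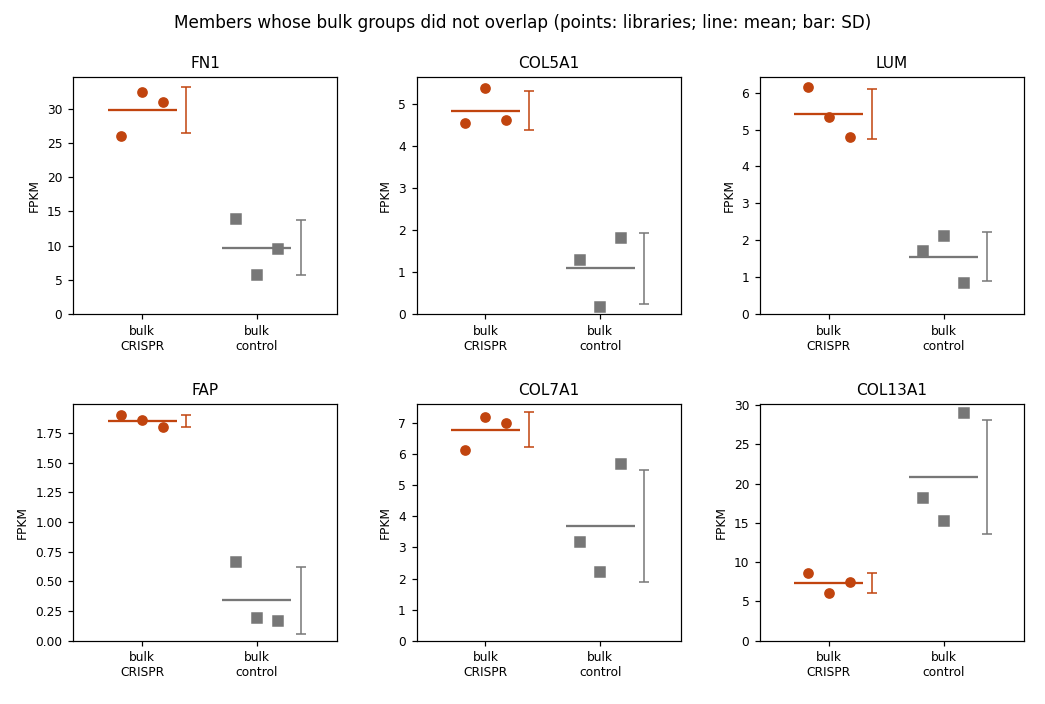
FPKM of the 6 members whose bulk groups did not overlap, with 1 point per library, a line at the group mean and a bar of 1 SD beside it, each axis starting at 0. Bulk CRISPR libraries lie above bulk controls for FN1, COL5A1, LUM, FAP and COL7A1 and below them for COL13A1, and none of the 6 passed the adjusted threshold.

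The size of these differences depended on the bulk controls. The median SD over members was 0.16 in the edited pools and 0.58 in the bulk controls on the log2 scale, and over all genes it was 0.14 in the edited pools and 0.43 in the controls. Without bulk control 2 the differences were 1.29 for FN1, 1.20 for COL5A1, 1.52 for LUM, 1.03 for FAP, 0.55 for COL7A1 and -1.53 for COL13A1, and 0 members were called. The median over members then turned to -0.04. It was 0.58 without bulk control 3 and 0.40 without bulk control 1, against 0.29 with every bulk library kept. Relative to the mean of the bulk libraries, members lay at a median of -0.79 in bulk control 2 and 0.42 in bulk control 3. Over all genes these medians were -0.28 and -0.05. Without bulk control 1, FN1, COL5A1, LUM and COL13A1 passed the threshold, with adjusted p-values of 0.0292, 0.0481, 0.0379 and 0.0469, among 1327 genes in all. FAP passed there too (adjusted p = 0.023), again admitted only by the edited pools. Under quantile scaling, which brought the median of all genes from 0.18 to 0.03, FN1 passed at 1.45 (adjusted p = 0.0481). That scaling also moved the share of higher genes among those called from 54.8% to 34.2%.

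The machinery around the collagens was read from 3 lists. Among receptors for collagen and fibronectin, 0 of 16 tested genes were called and 6 had an unadjusted p under 0.05, all higher in the edited pools, against 20.9% of all genes (1690 higher and 839 lower). The list median was 0.68, against 0.18 over all genes. The largest differences were those of integrin subunits, ITGAV at 1.43 ± 0.51, ITGA2 at 1.26 ± 0.43 and ITGA5 at 1.08 ± 0.35. Among enzymes and carriers of collagen folding and crosslinking, 0 of 23 were called, 4 higher and 1 lower had an unadjusted p under 0.05, and the median was 0.28. Here the collagen export factor MIA3 stood at 0.95 ± 0.38, the C-propeptide protease BMP1 at 0.92 ± 0.38 and the lysyl oxidase LOXL4 at -0.72 ± 0.24. Of the other matrix proteins 0 of 24 were called, 10 higher and 1 lower had an unadjusted p under 0.05, and the median was 0.42. VCAN (versican) led them at 2.59 ± 0.46 (adjusted p = 0.0772), followed by ECM1 at 1.90 ± 0.35 (adjusted p = 0.0872) and TGFBI, a TGF-beta induced adhesion protein, at 1.71 ± 0.31 (adjusted p = 0.0818).

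Markers of other cell types were read beside these results. Among 7 epithelial markers 4 reached 1 FPKM, and their sum was 413 to 537 FPKM in bulk CRISPR and 700 to 1095 FPKM in bulk control. That sum was mostly KRT18 and KRT8, and KRT8 fell to 46.7 FPKM in bulk CRISPR, against 176 FPKM in bulk control (log2 difference -1.89 ± 0.24, adjusted p = 0.0292), while EPCAM, CDH1 and KRT5 stayed below 1 FPKM. The fibroblast and mural list summed to 16.4 to 18.2 FPKM in bulk CRISPR and 11.45 to 23.0 FPKM in bulk control, and 0 of its 2 tested genes were called. The haematopoietic list (2 of 6 at 1 FPKM) summed to 48.8 to 55.2 FPKM in bulk CRISPR and 17.96 to 49.2 FPKM in bulk control, mostly CD68. The endothelial list (1 of 5) summed to 0.31 to 0.61 FPKM in bulk CRISPR and 0.10 to 0.32 FPKM in bulk control, with CLDN5 at 0 in every library. Of 10 melanoma and melanocyte markers, 6 reached 1 FPKM, and the list summed to 169 to 200 FPKM in bulk CRISPR and 181 to 258 FPKM in bulk control. SOX10, a neural crest and melanocyte factor, was present in all libraries, whereas MLANA and TYR were at 0 in all 14. The part of these markers in the bulk differences was not tested.

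Among the clones, no matrix gene passed the test for a Z18 genotype. For trunc/+ against WT, 0 of 23 tested members were called in the limma fit, against 0.00775% of 12904 genes, and 1 member had an unadjusted p under 0.05, against 7.59% of genes. For -/+ against WT, the counts were 0 of 23 and 1 of 23, against 0.00775% and 1.82% of genes. For trunc/+ against -/+, they were 0 of 23 and 3 of 23, against 0% and 6.28%. The comparisons with WT share the WT clones. The median over members was 0.03, -0.06 and 0.08 in the 3 comparisons, and -0.02, -0.02 and -0.001 over all genes.

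Matrix genes varied more from clone to clone than most genes did. The median SD of members within a genotype was 0.72 in trunc/+, 0.63 in -/+ and 0.40 in WT clones on the log2 scale, against 0.24, 0.23 and 0.16 over all genes tested. FN1 was the extreme case. It measured 13.6, 4.90 and 4.02 FPKM in trunc/+, 7.20, 35.2 and 53.3 FPKM in -/+, and 2.71 and 139 FPKM in WT clones, so that the lowest and the highest of the 8 clones had the same Z18 genotype. The log2 differences were -1.60 ± 1.45 for trunc/+ against WT, 0.15 ± 1.45 for -/+ against WT and -1.74 ± 1.29 for trunc/+ against -/+. Without WT clone 2 the difference of trunc/+ against WT turned to 1.03 and that of -/+ against WT was 2.77, whereas without WT clone 1 they were -4.22 and -2.47.

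SPARC measured 258, 392 and 660 FPKM in trunc/+, 663, 467 and 279 FPKM in -/+, and 492 and 226 FPKM in WT clones. All 3 genotypes overlapped, with differences of 0.28 ± 0.51 (trunc/+ against WT) and 0.40 ± 0.51 (-/+ against WT). COL9A3 measured 508, 129 and 280 FPKM in trunc/+, 184, 140 and 119 FPKM in -/+, and 218 and 89.5 FPKM in WT clones. Its largest value was that of trunc/+ clone 1, and trunc/+ against WT stood at 0.91 ± 0.58 (adjusted p = 0.715), against -/+ at 0.86 ± 0.51.

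COL4A2 measured 178, 40.1 and 45.8 FPKM in trunc/+, 120, 102 and 47.1 FPKM in -/+, and 98.8 and 82.5 FPKM in WT clones. COL4A1 measured 116, 21.2 and 18.9 FPKM in trunc/+, 49.9, 57.3 and 23.0 FPKM in -/+, and 45.1 and 41.7 FPKM in WT clones. For both genes trunc/+ clone 1 was the highest of all clones and the other trunc/+ clones were among the 3 lowest. COL6A1 was steadier, at 29.2, 26.7 and 23.7 FPKM in trunc/+, 27.4, 27.9 and 43.99 FPKM in -/+, and 24.8 and 19.4 FPKM in WT clones. It was the member with an unadjusted p under 0.05 in -/+ against WT (0.54 ± 0.23, adjusted p = 1.00).

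COL5A2 measured 36.9, 14.9 and 23.5 FPKM in trunc/+, 32.1, 39.9 and 39.1 FPKM in -/+, and 30.0 and 46.8 FPKM in WT clones (trunc/+ against WT -0.65 ± 0.35, adjusted p = 0.687). COL6A2 measured 16.7, 9.45 and 19.8 FPKM in trunc/+, 28.9, 14.5 and 10.7 FPKM in -/+, and 19.0 and 16.9 FPKM in WT clones. In neither gene did a genotype stand outside the others. COL4A5, COL5A1 and COL7A1 were the 3 members at an unadjusted p under 0.05 for trunc/+ against -/+, and the only ones whose trunc/+ and -/+ clones did not overlap, against 11.2% of all genes. COL4A5 measured 3.01, 1.65 and 2.75 FPKM in trunc/+ and 1.33, 1.11 and 1.33 FPKM in -/+ clones (0.60 ± 0.21, adjusted p = 0.785), beside 1.25 and 1.19 FPKM in WT clones. COL5A1 measured 2.32, 2.48 and 1.98 FPKM in trunc/+ and 1.68, 1.02 and 1.12 FPKM in -/+ clones (0.53 ± 0.19, adjusted p = 0.788). COL7A1 measured 2.51, 2.03 and 1.38 FPKM in trunc/+ and 1.17, 0.698 and 1.06 FPKM in -/+ clones (0.58 ± 0.21, adjusted p = 0.788).

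Some low members were on in single clones. COL6A3, the long chain of collagen VI, reached 16.2 FPKM in trunc/+ clone 1 and lay between 0.243 and 4.12 FPKM in the other 7 clones. COL22A1, a FACIT collagen of tissue junctions, was at 1.68 FPKM in WT clone 2 and at no more than 0.0287 FPKM in the other clones. FAP was at 2.34 FPKM in trunc/+ clone 2 and 1.97 FPKM in WT clone 2, against at most 0.366 FPKM elsewhere among clones. COL5A3 passed 1 FPKM only in trunc/+ clone 3, at 1.21 FPKM, and COL8A1, a network collagen of vessels and cornea, reached 2.22 FPKM in -/+ clone 3 and 1.13 FPKM in trunc/+ clone 2. LUM was at 0.575 FPKM in trunc/+ clone 1 and at 1.84 to 7.78 FPKM in the others. Levels among the clones were less uneven for COL27A1 (2.99 to 6.29), COL18A1 (3.57 to 11.1), COL12A1 (3.43 to 10.9) and COL9A2 (1.33 to 6.09 FPKM).

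Most other members with large fitted differences in the clone comparisons had errors of about their own size or more. For trunc/+ against WT these were COL4A5 (0.62 ± 0.23), COL19A1 (-0.56 ± 1.17), COL13A1 (0.50 ± 1.22), COL6A3 (0.42 ± 1.07) and COL4A2 (-0.38 ± 0.65), of which COL4A5 was over 2 times its error. For -/+ against WT they were FAP (-0.67 ± 0.59), COL12A1 (-0.43 ± 0.44), COL13A1 (0.42 ± 1.22), COL7A1 (-0.28 ± 0.24), COL8A1 (0.26 ± 0.48) and COL6A3 (0.23 ± 1.07). For trunc/+ against -/+, FAP stood at 0.58 ± 0.53, COL5A2 at -0.63 ± 0.31 and COL19A1 at -0.46 ± 1.04. Among clones FAP reached 1 FPKM only in trunc/+ clone 2 and WT clone 2, and COL8A1 only in -/+ clone 3 and trunc/+ clone 2. Both genes thus entered the fit through single clones in which they were high, and their differences are given as a description.

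**Figure D3:**
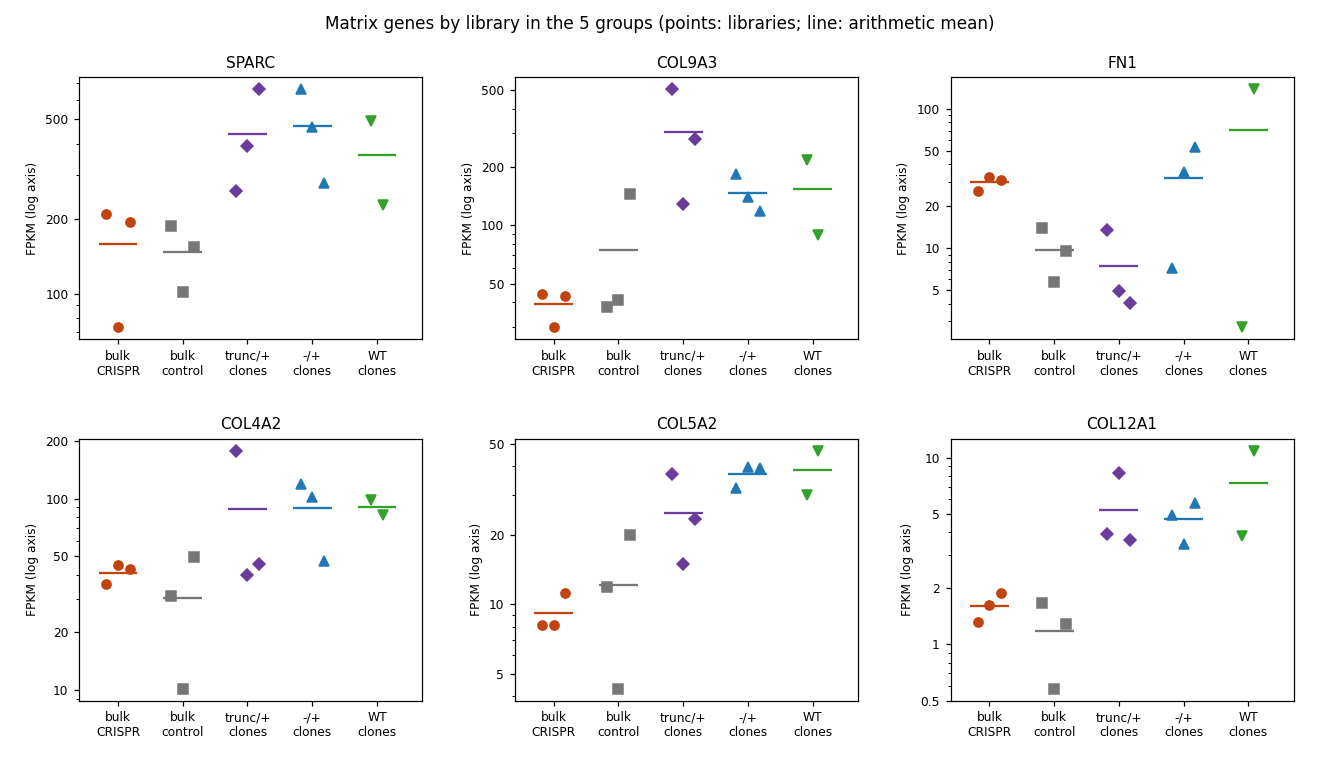
FPKM of 6 matrix genes on log axes in the 5 groups, with 1 point per library and a line at the arithmetic mean. SPARC, COL5A2 and COL12A1 lie higher in clones than in most bulk libraries, and FN1 spans 2.71 to 139 FPKM within the 2 WT clones.

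Some matrix genes varied together over the clones, across genotypes. Over the 8 clones and the 253 pairs of the 23 tested members, 4 pairs had an adjusted p under 0.05 for Pearson's r by exact permutation, and 0 pairs did for Spearman's rho. The share of such pairs among all genes was not computed, so these pairs are not shown to be particular to matrix genes. All correlations are of log2(FPKM + 1), and with 2 or 3 clones a genotype they could not be computed within genotypes. COL4A1 and COL4A2, which share a promoter region, had r = 0.97 and rho = 0.95 (adjusted exact permutation p = 0.0408 and 0.0706), and r = 0.97 without the 2 clones farthest from the median. The ratio of COL4A2 to COL4A1 was 1.54 to 2.42 in clones and 1.37 to 1.82 in bulk libraries. COL4A1 and COL6A3, on different chromosomes, had r = 0.92 and rho = 0.95 (adjusted exact permutation p = 0.0408 and 0.0706), and r = 0.85 without the farthest 2 clones.

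The sharpest opposition was between COL19A1 and COL13A1. COL19A1, a rare FACIT collagen of basement membrane zones, measured 2.89, 0.233 and 11 FPKM in trunc/+, 13.5, 6.29 and 0.419 FPKM in -/+, and 8.49 and 2.42 FPKM in WT clones. COL13A1 measured 11.7, 23.5 and 0.735 FPKM in trunc/+, 1.78, 5.23 and 24.97 FPKM in -/+, and 3.17 and 6.91 FPKM in WT clones. Trunc/+ clone 2 and -/+ clone 3 were low in COL19A1 and high in COL13A1, whereas trunc/+ clone 3 and -/+ clone 1 were the reverse. Their r was -0.96 and their rho -0.93 (adjusted exact permutation p = 0.0408 and 0.0706), and r was -0.89 without the 2 farthest clones. The same clones also deviated together from their genotype means over all expressed genes. There r was 0.61 for trunc/+ clone 2 with -/+ clone 3, and 0.55 for trunc/+ clone 3 with -/+ clone 1. For trunc/+ clone 3 with -/+ clone 3 it was -0.56. The part of this wider pattern in the member pairs was not tested.

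The last of the 4 pairs was COL11A2, a fibrillar collagen of cartilage, and COL16A1, a FACIT collagen. COL11A2 measured 2.09, 0.487 and 4.80 FPKM in trunc/+, 2.61, 2.52 and 0.661 FPKM in -/+, and 2.92 and 0.744 FPKM in WT clones. COL16A1 measured 6.58, 3.34 and 17.7 FPKM in trunc/+, 9.83, 6.49 and 4.93 FPKM in -/+, and 12.1 and 4.04 FPKM in WT clones. The same trunc/+ clone 3 was highest in both. COL11A2 and COL16A1 had r = 0.94 and rho = 0.95 (adjusted exact permutation p = 0.0408 and 0.0706), and r = 0.93 without the 2 farthest clones.

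Markers of melanoma state were read along the same order of clones. COL19A1 and COL13A1 were picked for their opposition and the markers after their values had been seen, so these relations are a description without a test, and both genes lie along 1 axis. S100B, a neural crest calcium-binding protein, measured 24.4, 0.474 and 85.4 FPKM in trunc/+, 77.9, 27.1 and 2.43 FPKM in -/+, and 65.7 and 6.88 FPKM in WT clones. SOX9, a factor of cartilage and of less differentiated melanoma cells, measured 1.32, 5.40 and 0.135 FPKM in trunc/+, 0.012, 0.657 and 9.09 FPKM in -/+, and 0.093 and 1.06 FPKM in WT clones. S100B was lowest in the clones lowest in COL19A1, trunc/+ clone 2 and -/+ clone 3, and SOX9 was highest in the same 2 clones. With COL19A1, r was 0.88 for SOX10, 0.87 for MIA and -0.78 for AXL. MITF did not follow this order, with r = -0.12 for COL19A1 and 0.17 for COL13A1. It measured 11.1 FPKM in trunc/+ clone 2 and 14.6 FPKM in -/+ clone 3, but 19.7 FPKM in -/+ clone 1. The part of such a state in the genotype comparisons was not tested.

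**Figure D4:**
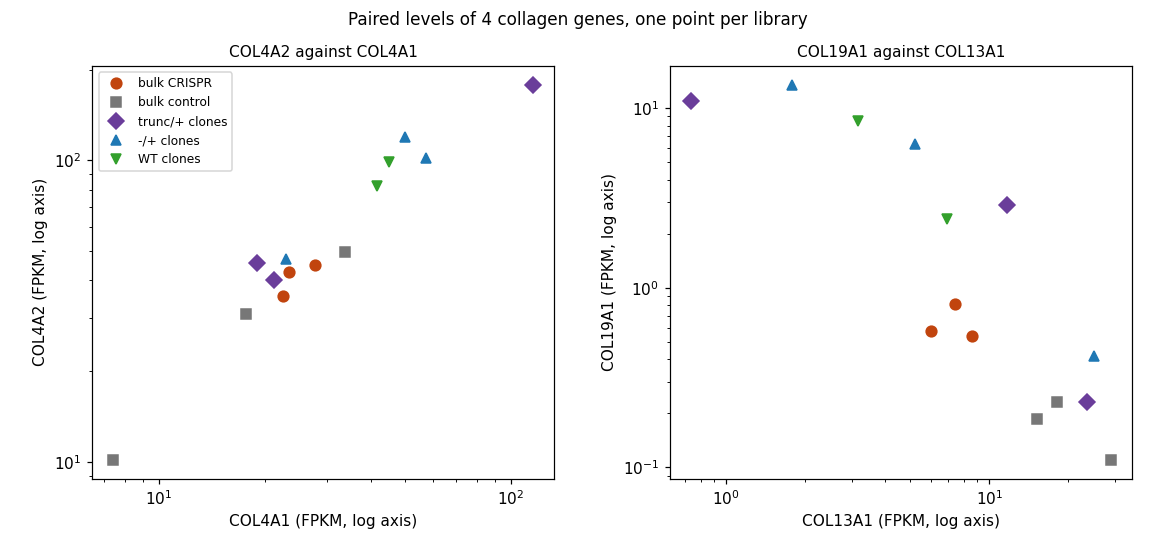
FPKM of COL4A2 against COL4A1 and of COL19A1 against COL13A1 on log axes, with 1 point per library and a colour and symbol for each group. COL4A1 and COL4A2 fall along 1 rising band, and COL19A1 is lower where COL13A1 is higher, with the trunc/+ and -/+ clones spread along both.

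The matrix lists showed no called gene among clones in any of the 3 comparisons, as 0 of 24 folding and crosslinking genes, 0 of 17 receptors and 0 of 25 other matrix genes passed. For trunc/+ against WT the largest differences were VCAN (1.33 ± 1.05), LAMB3 (1.31 ± 0.855) and LAMA2 (1.08 ± 0.82) among matrix proteins, BMP1 (0.74 ± 0.18), PCOLCE2 (-0.70 ± 0.53) and PCOLCE (-0.59 ± 0.49) among processing factors, and ITGA2 (0.69 ± 0.78), ITGA4 (-0.65 ± 0.34) and ITGA3 (0.65 ± 0.38) among receptors. BMP1 had the smallest error of these. For -/+ against WT they were SPP1 (-1.61 ± 1.67), CCN1 (-0.96 ± 0.93) and LAMA2 (0.78 ± 0.82), then PCOLCE2 (-0.67 ± 0.53), P3H2 (0.67 ± 0.43) and LOXL4 (0.66 ± 1.38), and ITGA2 (0.52 ± 0.78), SDC1 (-0.49 ± 0.73) and DDR2 (-0.455 ± 0.308). For trunc/+ against -/+ they were SPP1 (1.58 ± 1.49), LAMA5 (1.31 ± 0.58) and THBS1 (-1.16 ± 0.67), then P3H2 (-0.61 ± 0.38), SERPINH1 (-0.55 ± 0.25) and LOXL3 (-0.47 ± 0.74), and the adhesion receptor ADGRG1 (0.79 ± 0.36), ITGB5 (0.73 ± 0.28) and ITGA5 (0.53 ± 0.21).

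Unedited clones were also set against unedited pools, a contrast in which cloning, time in culture and handling cannot be told apart. COL12A1 and COL5A2 were higher in WT clones than in bulk controls, and COL17A1 and COL7A1 were lower. In the fit of all 14 libraries 4 of 24 tested members were called, 2 in each direction, against 15.0% of 13439 genes, a share near that of all genes. At an unadjusted p under 0.05 there were 10 of 24, against 34.2%, and 14 of 24 members had groups that did not overlap, against 45.1%. The median over members was 0.95, and 0.18 over all genes.

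COL12A1, a FACIT collagen of dense connective tissue, measured 3.80 and 10.9 FPKM in WT clones, against 1.67, 0.579 and 1.29 FPKM in bulk controls (log2 difference 1.83 ± 0.40, adjusted p = 0.0168). All 8 clones, of any genotype, were above all 6 bulk libraries, whose highest value was 1.89 FPKM. The share of all genes that separate in this way was not computed, and 45.1% of genes did not overlap between WT clones and bulk controls. COL5A2 measured 30.0 and 46.8 FPKM in WT clones, against 11.9, 4.29 and 20.1 FPKM in bulk controls (1.77 ± 0.48, adjusted p = 0.0301). Its partner COL5A1 stood at 0.39 ± 0.31 (adjusted p = 0.390).

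COL17A1, a transmembrane collagen of hemidesmosomes, measured 0.0072 and 0.363 FPKM in WT clones, against 2.39, 0.8602 and 2.87 FPKM in bulk controls (-1.31 ± 0.39, adjusted p = 0.0394). It measured 1.85, 2.92 and 2.53 FPKM in bulk CRISPR, so that 1 of 8 clones but 5 of 6 bulk libraries were above 1 FPKM. Of the groups compared, only the bulk controls, in which COL17A1 was high, reached 1 FPKM. The bulk CRISPR pools and 1 trunc/+ clone also admitted it to the fit of all libraries. COL7A1 measured 1.29 and 1.495 FPKM in WT clones, against 3.19, 2.21 and 5.69 FPKM in bulk controls (-0.91 ± 0.29, adjusted p = 0.0493).

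COL19A1 had the largest fitted difference of all members and did not pass. In bulk libraries it reached at most 0.812 FPKM, so it entered the fit only through clones. Its difference is therefore given as a description. It measured 8.49 and 2.42 FPKM in WT clones, against 0.231, 0.186 and 0.110 FPKM in bulk controls (2.28 ± 0.91, adjusted p = 0.1003). Its groups lay far apart, but the fit shares its spread with the trunc/+ and -/+ clones, in which the gene varied widely. The other large differences were COL13A1 (-1.87 ± 0.97), COL4A2 (1.80 ± 0.66), COL4A1 (1.33 ± 0.69) and COL6A2 (1.31 ± 0.45), followed by COL18A1 (1.22 ± 0.47), SPARC (1.22 ± 0.53) and COL9A3 (1.18 ± 0.61), none of which passed. FN1 stood at 1.17 ± 1.14 and turned to -1.46 without WT clone 2.

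These 4 calls depended on single libraries and on the scale. With TPM or a pseudocount of 0.1, COL17A1 and COL7A1 were lost, and in a fit of these 5 libraries alone none of the 4 passed. COL19A1 was the 1 member past the threshold in that fit, which it entered only through the WT clones in which it was high. Without WT clone 2, 0 members and 51 genes were called, and without WT clone 1, COL12A1 was called, as 1 of 99 genes. Without bulk control 1 COL17A1 was lost, without bulk control 2 COL5A2 was lost and COL4A5 passed, and without bulk control 3 COL17A1 and COL7A1 were lost while COL18A1, COL4A2, COL6A2 and COL9A3 passed. Scaling also moved the whole contrast, since the median of all genes was 0.18 with FPKM, 0.35 with TPM and 0.03 with quantile scaling, and the share of higher genes among those called was 64.8%, 79.2% and 51.8%.

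The lists around the collagens were read in the same contrast, beside the 15.0% of all genes called. Of 27 other matrix genes tested, 5 were called higher and 1 lower. Tenascin C (TNC, 3.31 ± 0.96), the basement membrane linker NID1 (2.52 ± 0.51), the laminin chains LAMC1 (1.43 ± 0.45) and LAMB1 (0.94 ± 0.28) and EMILIN1 (1.35 ± 0.31) were higher in WT clones, and LAMB3 (-2.41 ± 0.72), a laminin chain of epithelia, was lower. Of 17 receptors 3 were called, all higher, namely ITGAV (1.77 ± 0.45), ITGA4 (1.46 ± 0.37) and the collagen receptor kinase DDR2 (1.41 ± 0.34), beside ITGB3 (2.64 ± 0.90) and ITGA1 (1.88 ± 0.65), which did not pass. Of 24 folding and crosslinking genes 3 were called, all higher, namely MIA3 (1.315 ± 0.352), the collagen glycosyltransferase COLGALT2 (0.87 ± 0.24) and the procollagen peptidase ADAMTS3 (0.73 ± 0.19). COLGALT2 entered the fit only through -/+ clone 1 (1.02 FPKM) and WT clone 2 (1.31 FPKM). No bulk library passed 0.65 FPKM, so its difference is given as a description. The lysyl oxidases LOXL4 (2.88 ± 1.08) and LOXL3 (2.12 ± 0.68) had the largest differences of that list and did not pass.

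Marker levels moved with this contrast too, and their part in it was not tested. SOX10 rose to 148 FPKM in WT clones, against 16.6 FPKM in bulk controls (3.09 ± 0.56, adjusted p = 0.00939), and SOX9 fell to 0.576 FPKM in WT clones, against 12.9 FPKM in bulk controls (-3.17 ± 0.82, adjusted p = 0.0273). The melanoma list summed to 412 to 664 FPKM in WT clones and 181 to 258 FPKM in bulk controls, and the epithelial list to 213 to 561 FPKM in WT clones and 700 to 1095 FPKM in bulk controls. The fibroblast and mural list summed to 8.91 to 11.9 FPKM in WT clones, the haematopoietic list to 25.1 to 31.7 FPKM and the endothelial list to 1.80 to 2.41 FPKM, beside the bulk control ranges given above. Of these lists' low markers, PDGFRB (0.95 ± 0.22) and KDR (1.47 ± 0.30) were called higher. In bulk libraries PDGFRB reached at most 0.642 FPKM and KDR at most 0.295 FPKM. Both thus entered the fit only through clones, where they were high, and their differences are given as a description.

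**Figure D5:**
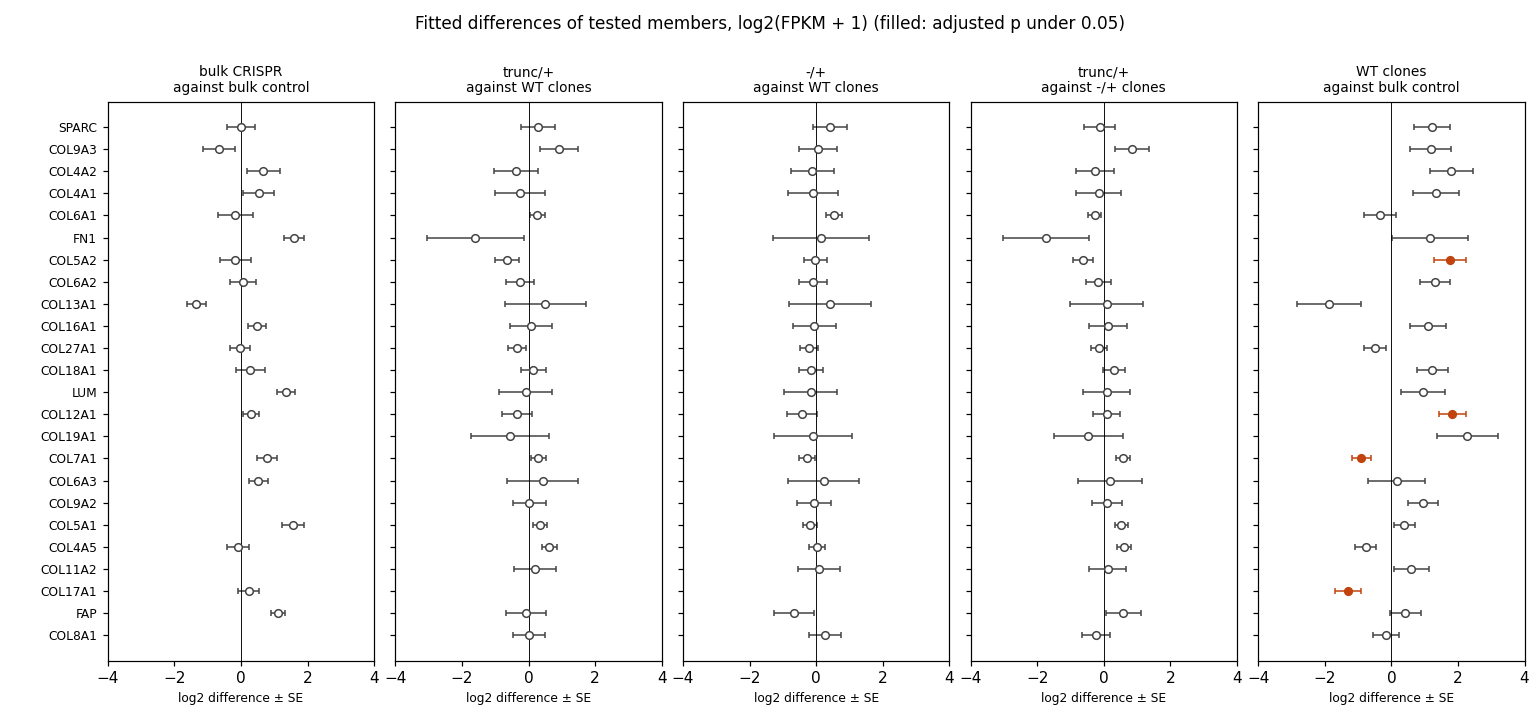
Fitted log2 differences of the tested members in 5 comparisons, on the log2(FPKM + 1) scale with bars of 1 SE, where filled points have an adjusted p under 0.05. Filled points occur only for WT clones against bulk control, at COL5A2, COL12A1, COL7A1 and COL17A1, and the FN1 and COL13A1 bars are the widest among clones.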

How the data were processed

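PolyA-selected, stranded libraries of A375 cells were sequenced as paired ends. The authors processed them with SQuIRE on hg38, and the submitters' processing notes name cutadapt 4.6. The deposited gene tables give read coverage, FPKM and TPM for each gene, as the authors ran StringTie within SQuIRE. The versions of SQuIRE and of the tools it ran on these libraries are not given in the sources used here. No column lacked a sample (0 such columns). The deposited transposable element files were used only for the number of aligned fragments. Gene counts were not used here, so depth per gene was read from the coverage, and the study's count-based test was replaced.

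Values of 1 symbol were added up, and limma 3.58.1 with a trended variance (R 4.3.3) was run on log2(FPKM + 1), which understates changes of low genes. Genes needed 1 FPKM in 3 libraries in the bulk fit and in 2 in the other fits. The clone comparisons shared 1 fit of 8 clones, and the WT clones were set against bulk controls in a fit of 14 libraries. Benjamini-Hochberg adjustment covered all genes tested in a fit, with 0.05 as the threshold. Alternatives were TPM, quantile scaling, a pseudocount of 0.1, no filter, a mean filter, a replicate block, other choices of samples in the fit, and leaving out each library. The fits were tested on simulated data. Clone correlations used exact two-sided permutation of all pairings (smallest possible p 4.96e-05, Python 3.11.15, numpy 2.4.6), with 253 member pairs as 1 family.

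All members were accounted for. Named were members at 1 FPKM in any library, members past the threshold, the 8 with the largest differences per comparison, and the 3 largest per pathway list. The members and lists were chosen with earlier results of these data known. Transcript lengths came from GENCODE 44, which placed all 49 members where the files do, and promoters from RefSeq. COL11A2 also has 6 entries on alternate haplotypes, whose values were summed with it.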

Additional observations from a re-analysis of the deposited data

How the results depend on the processing

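For bulk CRISPR against bulk control, 1 member (FN1) was called under quantile scaling and 1 (COL5A1) with all 14 libraries in 1 fit, and leaving out 1 library gave 0 to 5 members and 4 to 1327 genes. For WT clones against bulk control, 2 members were called with TPM, 2 with a pseudocount of 0.1, 1 without a filter (COL12A1) and 1 in a fit of only the groups compared (COL19A1, admitted only by the WT clones), and leaving out 1 library gave 0 to 6 members and 51 to 3690 genes. The cause of these shifts was not tested. In all the alternatives above, the 3 comparisons among clones gave 0 called members, and the median over members ranged from -0.25 to 0.26 when 1 clone was left out. Genes called in all ranged from 16 (no filter) to 316 (all 14 libraries in 1 fit) in the bulk comparison, beside 42, and were 221 in the fit of only the groups compared for WT clones against bulk control, beside 2015. Over single members, 24 values lost a call and 19 gained one. A further 1398 kept their direction and side of the threshold, or were uncalled and changed sign from a main difference smaller than its error. Such a change could be large, as FN1 in -/+ against WT went from 0.15 ± 1.45 to -2.47 without WT clone 1. The last 2 uncalled values changed sign from a main difference larger than its error, both of FN1 without WT clone 2.

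The libraries share replicate numbers, but same-numbered bulk libraries did not deviate together (r = -0.16, -0.21 and 0.17), so the numbers gave no pairing. With a replicate block, 5 members (COL13A1, COL5A1, FN1, LUM and FAP, the last admitted only by the edited pools) and 220 genes were called in bulk CRISPR against bulk control, and 2 members (COL12A1 and COL5A2) and 1171 genes in WT clones against bulk control, while the comparisons among clones stayed at 0 members.

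Groups of 2 or 3 libraries limit every p-value, genes near 1 FPKM rest on a mean coverage under 10, and bulk control 2 departs from the other libraries in long transcripts, among which most tested collagens fall.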
